A study of Homo sapiens with 6 samples.

Results

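Kidney and lung lineage transcription factors are DNA-binding proteins that set up and maintain the identity of epithelial cells in these organs. In the present analysis, 8 such genes were taken by name from the deposited expression table: PAX2, PAX8, LHX1, EMX2 and WT1 for the kidney, and FOXA1, FOXA2 and NKX2-1 for the lung and other organs of the foregut. The table lists 15897 genes and holds 7 of the 8 names, namely all 5 kidney genes and 2 of the 3 lung genes. FOXA2 was not listed, so no value can be given for it in either group.

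RNA-seq was performed on cells labelled H1650, an established human lung adenocarcinoma cell line. The groups were meant to differ by depletion of SETD2, the main enzyme for trimethylation of lysine 36 on histone H3. For H1650 cells with hairpins against SETD2, the paper reports lower SETD2 by qPCR and western blot, and less of this trimethylation. It does not say which of these cultures were sequenced. The level of SETD2 measured in these libraries is given below. 3 libraries were labelled control, with a wild type genotype, and 3 were labelled shSETD2, in which a short hairpin RNA targets SETD2. All 6 carry the same cell line and tissue labels, with numbers 1 to 3 within a group. The study's methods describe 3 hairpin plasmids against SETD2 that carry the numbers 1 to 3, and stable lines made with lentivirus, while the series is described as triplicates. The labels do not say if an shSETD2 number is that of a plasmid or of a replicate. It is not stated whether the libraries of a group came from separate cultures, so p-values measure only the spread between these libraries, which may be technical. Expression is given as FPKM, the fragments of a gene scaled to its length and to the size of the library.

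PAX2 and PAX8 are paired-box proteins that act early in the kidney lineage and remain on in parts of the adult tubule, and PAX8 also drives thyroid and Müllerian epithelium. LHX1, EMX2 and WT1 act in the branching ureteric bud, in the mesenchyme that condenses around it and in podocytes. FOXA1 and FOXA2 are forkhead pioneer factors that open chromatin in endoderm, and NKX2-1 is the homeodomain factor that specifies lung and thyroid and is commonly used to recognise lung adenocarcinoma.

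SETD2, the target of the hairpin, was measured at 18.0, 10.2 and 17.6 FPKM in the control libraries and at 8.97, 8.09 and 12.2 FPKM in the shSETD2 libraries. The groups overlapped, with control library 2 lower than shSETD2 library 3. Means were 15.3 ± 4.38 FPKM for control and 9.74 ± 2.15 FPKM for shSETD2 (SD, n = 3 each), and the difference in log2(FPKM + 1) of -0.58 (SE 0.240) did not pass the threshold over all genes tested (limma, adjusted p = 0.0641). Relative to the median of all genes (-0.29), the difference was also -0.29, and after median ratio scaling it was -0.25 (adjusted p = 0.376). It passed without control library 2 (-0.83, adjusted p = 0.00648), without shSETD2 library 3 (-0.73, adjusted p = 0.0418) and with the replicate number as a block (-0.58, adjusted p = 0.0156), and adjusted p ranged from 0.00648 to 0.376 over all alternatives. An exact two-sided permutation test on FPKM gave p = 0.2, where 0.1 is the smallest value that 3 against 3 libraries allow.

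The lung label was set against the markers of differentiated lung cells, and the defining markers were not listed. Of 21 lung differentiation genes, 16 were not listed, including all genes of surfactant proteins (SFTPA1, SFTPA2, SFTPB, SFTPC and SFTPD), NAPSA and the secretoglobins of club cells. The 5 listed genes summed to 35.6, 32.3 and 33.1 FPKM in the control libraries and to 49.8, 52.8 and 49.4 FPKM in the shSETD2 libraries, and in both groups LPCAT1, a lipid-remodelling enzyme that is not restricted to lung, was the most abundant. LPCAT1 rose from a mean of 17.7 to 37.8 FPKM and MUC1, an epithelial mucin, from 0.639 to 2.65 FPKM. LAMP3, a lysosomal protein of alveolar cells, also rose (0.584 to 1.23 FPKM), whereas the lipid transporter ABCA3 fell from 13.5 to 8.32 FPKM. AGER, at a mean of 1.25 FPKM in control and 0.670 FPKM in shSETD2, passed (adjusted p = 0.0431) but lost its call in 5 of the 6 fits with a library left out and under each of the 3 scalings. A gene that is not listed is not shown to be absent, so these markers cannot place either group as lung or as not lung.

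General epithelial markers also separated the groups. KRT7, a keratin of simple epithelium, was listed at 0, 0.0375 and 0.0250 FPKM in the control libraries and at 81.6, 77.0 and 87.1 FPKM in the shSETD2 libraries. KRT8 had means of 2.86 and 93.9 FPKM in control and shSETD2, and its partner KRT18 10.04 and 254.6 FPKM. The 10 listed genes of 12 in this list summed to 23.3, 22.5 and 22.7 FPKM in control and to 444.3, 408.4 and 460.4 FPKM in shSETD2, and KRT18 was the most abundant in both groups. CDH1, which encodes E-cadherin, stood at 1.52, 1.43 and 0.860 FPKM in control and at 0.0107, 0.0140 and 0.0114 FPKM in shSETD2, and ESRP2, an epithelial splicing factor, fell from a mean of 1.93 to 0.0219 FPKM. EPCAM was below 1 FPKM in all 6 libraries, and KRT19 and CLDN3 were not listed. ESRP1, the paralog of ESRP2, ran the other way, at 0.0439, 0.00879 and 0 FPKM in control and 0.639, 0.962 and 0.808 FPKM in shSETD2, and was not tested. OCLN, a tight junction gene, had overlapping groups at means of 5.73 and 6.10 FPKM and did not pass as deposited (limma, adjusted p = 0.238). Under each of the 3 scalings, all tested genes of this list passed the threshold, OCLN among them. Epithelial markers thus did not point in a single direction. Whether the groups are the same cells apart from SETD2 was not tested, and each shSETD2 minus control value is a difference between the labelled groups.

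Markers of other cell types were low, with an exception in the control libraries. The neurofilament genes NEFM and NEFL had means of 37.8 and 21.4 FPKM in control, INA had 7.38 FPKM, and all 3 were listed at 0 in each shSETD2 library. The 4 listed of 6 neuron markers summed to 71.0, 65.6 and 69.5 FPKM in control, where NEFM was the most abundant, and to 2.59, 2.67 and 2.73 FPKM in shSETD2, all from the synaptic vesicle gene SYP. STMN2 and ELAVL4 were not listed. Of 8 fibroblast markers, 4 were listed and summed to 4.04, 4.54 and 4.06 FPKM in control and to 0.340, 0.292 and 0.311 FPKM in shSETD2. COL1A1 was the most abundant in both groups and fell from a mean of 2.78 to 0.269 FPKM, while COL1A2, DCN, PDGFRA and THY1 were not listed. None of 5 endothelial markers was listed, and of 6 leukocyte markers CD68 and CD14 together gave 1.33, 1.35 and 1.62 FPKM in control and 1.91, 2.24 and 2.02 FPKM in shSETD2, with CD68 the most abundant and 4 not listed, among them PTPRC, CD3E and LYZ. The part of these marker differences in the results below was not tested.

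**Figure D1:**
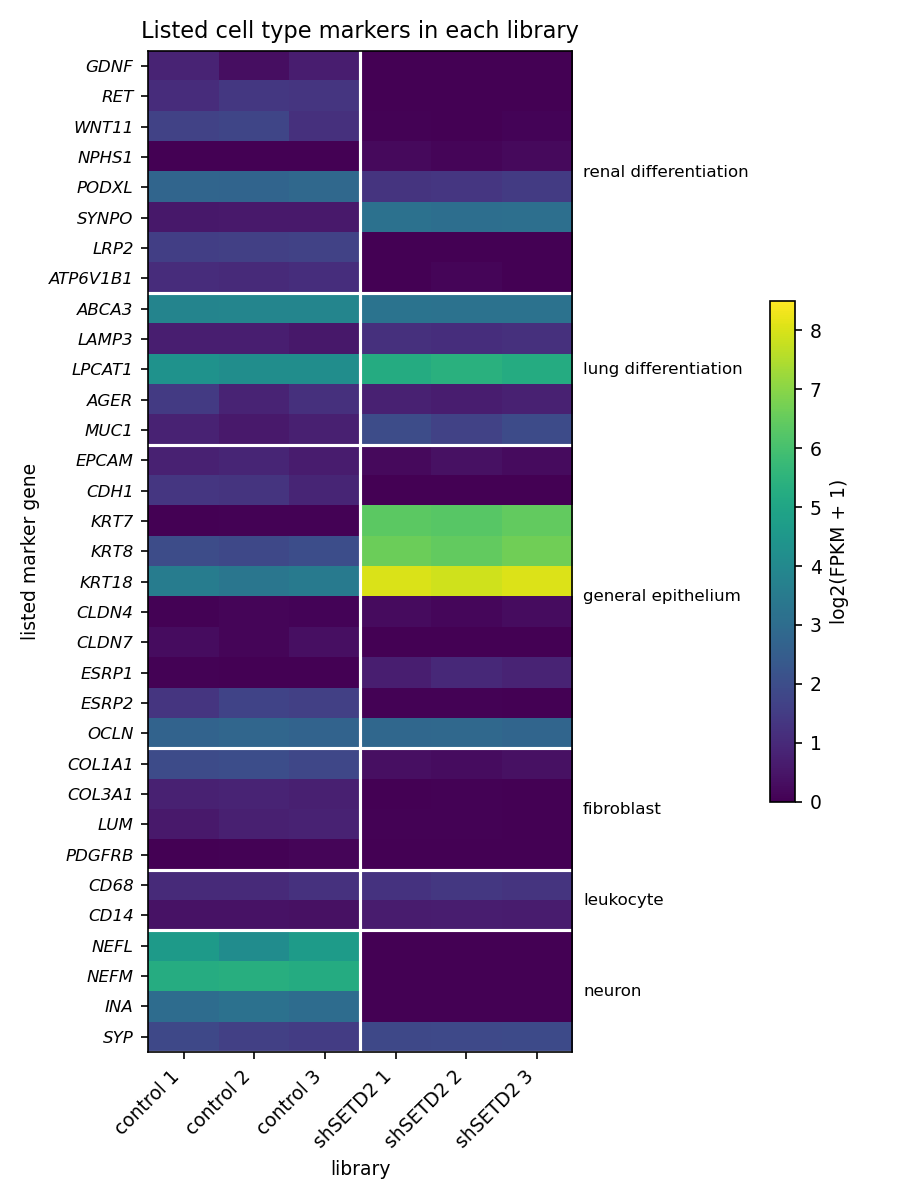
Heat map of log2(FPKM + 1) of the listed marker genes (rows, grouped by list) in each of the 6 libraries (columns). Libraries of the same group share their colours, with keratins bright in the shSETD2 libraries and neurofilament genes bright in the control libraries.

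The 6 libraries fell into 2 tight groups. Over the 14068 genes tested, correlations of log2(FPKM + 1) between libraries (Pearson) ranged from 0.982 to 0.990 within a group and from 0.701 to 0.707 across groups. In limma, 11057 genes (78.6%) had an adjusted p under 0.05, of which 3774 (26.8% of those tested) were higher and 7283 (51.8%) were lower in shSETD2. The median difference in log2(FPKM + 1), shSETD2 minus control, was -0.29 over all genes tested, so differences are also given below relative to this median. Scaling each library by median ratios moved it to 0.00. All 7 listed lineage factors had an adjusted p under 0.05, 4 of them higher (PAX2, PAX8, LHX1 and WT1) and 3 lower (EMX2, FOXA1 and NKX2-1). Such calls were common in this comparison, and 4 of the 7 (PAX8, EMX2, FOXA1 and NKX2-1) reached the minimum mean of 0.5 FPKM only through the group in which they were high, so nothing is read from the count. An exact permutation test gave p = 0.1, its smallest possible value, for each of the 7. No member had overlapping groups: in all 4 of the higher genes the lowest shSETD2 value exceeded the highest control value, as in 27.9% of all genes tested, and in the 3 lower genes the reverse held, as in 53.0%. In bulk RNA, fewer cells of a type and less RNA per cell cannot be told apart.

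**Figure D2:**
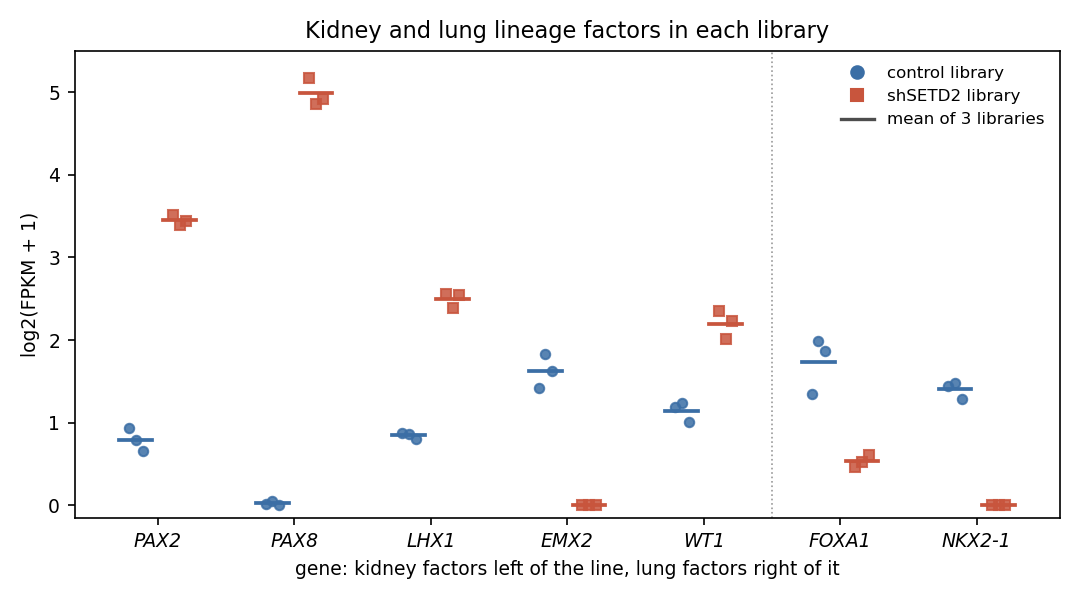
Points show log2(FPKM + 1) of each listed lineage factor in the 3 control and 3 shSETD2 libraries, and bars show the mean of each group. The groups do not overlap for any of the 7 genes, and EMX2 and NKX2-1 lie at 0 in every shSETD2 library.

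PAX8, which acts with PAX2 in the intermediate mesoderm that gives rise to the kidney, showed the widest separation of the 7. Its entry (chr2:113973574-114036527, minus strand, GRCh37) held 0.0147, 0.0368 and 0 FPKM in the control group (libraries 1, 2 and 3) and 35.2, 28.1 and 29.2 FPKM in the shSETD2 group. The control libraries were at or near 0 and the shSETD2 libraries were all high. The difference in log2(FPKM + 1) was 4.96 (SE 0.0901), or 5.25 relative to the median of all genes (adjusted p = 6.5e-08). Its size depends on the pseudocount and reached 10.41 with a pseudocount of 0.01. Among the genes of its library, PAX8 stood at the 2.06th to 4.65th percentile in control and at the 92.8th to 94.3rd percentile in shSETD2.

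PAX2, the paralog that is needed for the ureteric bud and the nephron progenitors, followed the same direction at lower levels. It was listed (chr10:102495360-102589698, plus strand) at 0.911, 0.729 and 0.578 FPKM in the control libraries and at 10.5, 9.49 and 9.84 FPKM in the shSETD2 libraries. Each shSETD2 library was far above each control library. The mean FPKM was 13.4 times higher in shSETD2, or 20.5 times after quantile normalization, and the difference in log2(FPKM + 1) was 2.66 (SE 0.0843), which is 2.95 relative to all genes (adjusted p = 5.8e-07). Thus the paralog that was higher in control was the lower in shSETD2: PAX2 exceeded PAX8 in all control libraries, and PAX8 exceeded PAX2 in all shSETD2 libraries.

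The promoter of PAX8 is shown because this gene had the largest difference of the 7 in log2(FPKM + 1). It spans chr2:113278872-113279171 on the minus strand in the RefSeq promoter table (GRCh38.p14, a later build than that of the expression table), which gives 250 bases before and 50 bases after a gene start. Of the 8 names, 6 matched this table with 11 starts, and LHX1 and FOXA2 did not. 4 motifs were searched on both strands of every promoter: TGTTTAC for FOXA factors, CAAGTG for NKX2 factors, the palindrome TAATTA for LIM and EMX homeodomains, and GCGTGGGCG for WT1 and EGR factors. Among 35116 promoters, 3.42%, 11.5%, 4.84% and 0.795% held these motifs, in this order. None of the 4 was found in the promoter of PAX8, which held 13 CpG dinucleotides against a median of 14 over all promoters.
PAX8: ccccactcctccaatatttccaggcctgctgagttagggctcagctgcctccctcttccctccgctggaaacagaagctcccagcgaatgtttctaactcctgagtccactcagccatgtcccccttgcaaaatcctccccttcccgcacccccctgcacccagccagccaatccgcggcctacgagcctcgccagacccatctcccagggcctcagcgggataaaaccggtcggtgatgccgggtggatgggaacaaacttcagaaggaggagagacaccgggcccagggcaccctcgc

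LHX1, a LIM-homeodomain factor of the nephric duct and of early nephrons, was also higher in shSETD2. Its entry (chr17:35294084-35301912, plus strand, GRCh37) gave 0.841, 0.816 and 0.748 FPKM in control and 4.89, 4.22 and 4.84 FPKM in shSETD2. Libraries within a group lay close together, and the groups were well apart. The mean rose from 0.802 ± 0.0480 to 4.65 ± 0.375 FPKM (SD, n = 3 each), a ratio of 5.80, or 9.13 after quantile normalization. On the log2(FPKM + 1) scale the difference was 1.65 (SE 0.0684), or 1.94 relative to all genes (adjusted p = 1.8e-06).

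WT1, the zinc finger factor of nephron progenitors and podocytes, changed least among the genes that were higher. FPKM values of WT1 (chr11:32409321-32457176, minus strand) were 1.29, 1.35 and 1.00 in control and 4.10, 3.05 and 3.70 in shSETD2. The lowest shSETD2 library was still above the highest control library. The mean of 1.22 ± 0.186 FPKM rose to 3.62 ± 0.532 FPKM (SD, n = 3 each), a ratio of 2.97, with a difference in log2(FPKM + 1) of 1.06 (SE 0.108), or 1.35 relative to all genes (adjusted p = 0.00013). The ratio of means ran from 2.74 to 4.34 over the alternatives that gave a value. RefSeq gives 4 promoters for WT1, of which the third held TAATTA and the fourth TGTTTAC on the opposite strand, after the start.

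EMX2, a homeodomain factor needed for the ureteric bud and for the urogenital tract, was the kidney gene that ran the other way. It was listed (chr10:119301955-119309057, plus strand) at 1.67, 2.55 and 2.08 FPKM in the control group and at 0 in each of the 3 shSETD2 libraries. All control libraries were above 1 FPKM and no shSETD2 library had a value above 0. The difference in log2(FPKM + 1) passed the threshold (adjusted p = 1.5e-05), and no fold change is given against a group listed at 0. In the same libraries, 25 reference genes that every cell uses were all above 0, with a lowest value of 7.72 FPKM. That is above every value of EMX2, so they cannot show whether a gene at its control level would be seen. Listed genes at 0 numbered 639, 602 and 653 in the control libraries and 1225, 1189 and 1227 in the shSETD2 libraries.

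The promoters of EMX2 and NKX2-1 are shown because both genes were listed at 0 in every shSETD2 library. The promoter of EMX2 lies at chr10:117542496-117542795 on the plus strand (RefSeq, GRCh38.p14) and held 21 CpG. The motif TAATTA, in capitals, begins 30 bases before the start. NKX2-1 has 2 promoters in the table, and the downstream of them, at chr14:36519507-36519806 on the minus strand, held 11 CpG and 3 of the motifs, in capitals. CAAGTG begins 147 bases before the start, TGTTTAC 130 bases and TAATTA 103 bases before it. The upstream promoter of NKX2-1 held 21 CpG and none of the motifs. A match to these letters is a description of the sequence and no measure of binding.
EMX2: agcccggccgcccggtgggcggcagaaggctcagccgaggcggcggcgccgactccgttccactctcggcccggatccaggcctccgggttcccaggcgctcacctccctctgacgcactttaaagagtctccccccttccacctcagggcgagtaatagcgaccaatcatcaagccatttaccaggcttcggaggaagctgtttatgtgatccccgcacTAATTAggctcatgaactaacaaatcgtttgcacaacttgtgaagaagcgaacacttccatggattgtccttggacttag
NKX2-1: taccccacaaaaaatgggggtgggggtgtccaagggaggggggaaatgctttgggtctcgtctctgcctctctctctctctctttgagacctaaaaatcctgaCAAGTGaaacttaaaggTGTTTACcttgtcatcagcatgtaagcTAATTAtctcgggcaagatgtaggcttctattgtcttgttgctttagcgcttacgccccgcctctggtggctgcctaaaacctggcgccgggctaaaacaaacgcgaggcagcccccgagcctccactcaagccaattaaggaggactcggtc

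NKX2-1, the lung and thyroid factor described above, had a pattern close to that of EMX2. Its entry (chr14:36985597-36990354, minus strand, GRCh37) held 1.71, 1.796 and 1.44 FPKM in control and 0 in each shSETD2 library. The control values are low, at the 26.8th to 30.7th percentile of the genes of each library. The difference passed the threshold (adjusted p = 3.9e-06) and again no fold change is given. For EMX2 and NKX2-1 the fitted difference in log2(FPKM + 1) was -1.62 and -1.40, and with a pseudocount of 0.01 it was -7.70 and -7.37, so its size is set by the pseudocount.

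FOXA1, the forkhead pioneer factor of endoderm, was lower in shSETD2 but not at 0. It was listed (chr14:38059189-38065264, minus strand) at 1.54, 2.97 and 2.66 FPKM in control and at 0.384, 0.444 and 0.529 FPKM in shSETD2. Control library 1 was the lowest of its group and still above all shSETD2 libraries. The mean was 2.39 ± 0.756 FPKM in control and 0.452 ± 0.0733 FPKM in shSETD2 (SD, n = 3 each), 5.28 times higher in control, or 2.77 times after quantile normalization. The difference in log2(FPKM + 1) was -1.20 (SE 0.170), or -0.91 relative to all genes (adjusted p = 0.00067). The promoter of FOXA1 held CAAGTG on the opposite strand, 12 bases before the start, and 34 CpG, the most of the 11 starts. FOXA3, the third FOXA gene, was listed at 1.03, 0.919 and 0.984 FPKM in control and at 0, 0.0264 and 0 FPKM in shSETD2 and was not tested.

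**Figure D3:**
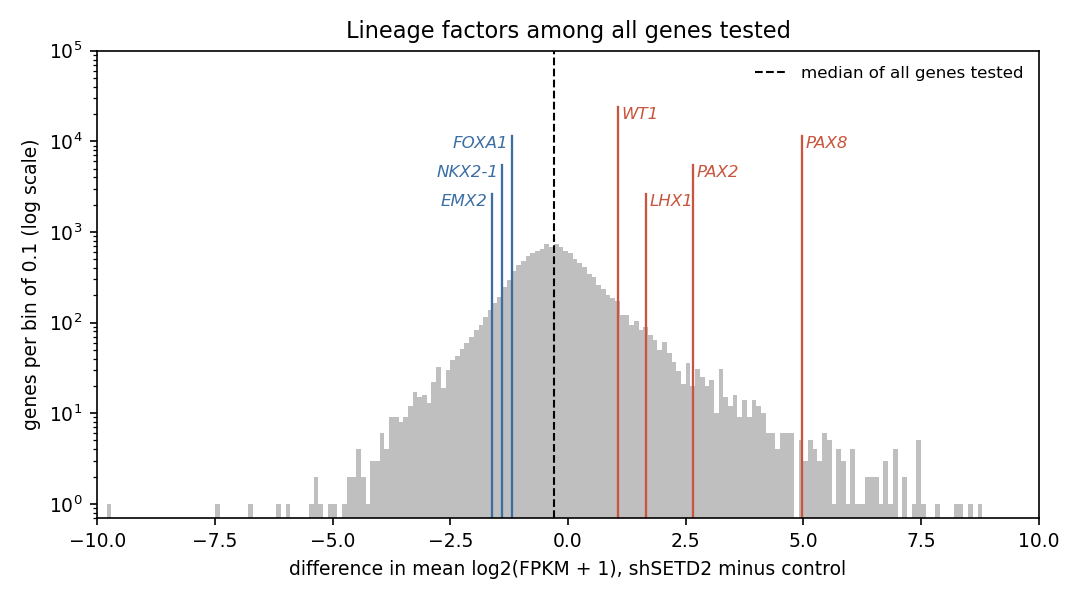
Histogram of the difference in mean log2(FPKM + 1), shSETD2 minus control, over the 14068 genes tested, with the number of genes on a log scale. The 7 listed lineage factors are marked by lines whose height has no meaning, and the dashed line is the median of -0.29.

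FPKM is scaled to gene length, so levels can be ordered within a group. In control the order of means was FOXA1 (2.39 FPKM), EMX2 (2.102), NKX2-1 (1.65), WT1 (1.22), LHX1 (0.802), PAX2 (0.739) and PAX8. The ranges of FOXA1 and EMX2 overlapped, as did those of EMX2 and NKX2-1 and those of LHX1 and PAX2, so these neighbours did not differ beyond their spread. In shSETD2 the order was PAX8, PAX2 (9.93 FPKM), LHX1 (4.65), WT1 (3.62) and FOXA1 (0.452), with EMX2 and NKX2-1 at 0, and no neighbouring ranges overlapped apart from the 2 genes at 0. The 5 kidney genes together gave 4.73, 5.49 and 4.41 FPKM in control and 54.6, 44.8 and 47.6 FPKM in shSETD2, most of it from PAX8. The 2 listed lung genes together gave 3.25, 4.77 and 4.09 FPKM in control and 0.384, 0.444 and 0.529 FPKM in shSETD2, where FOXA1 was the only contributor. None of the members exceeded 3 FPKM in a control library.

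For each member, the genes with the most similar values were found by the Euclidean distance of log2(FPKM + 1) over the 6 libraries. For PAX8 these were TNFSF18 (distance 0.251) and PDZK1IP1 (0.332), both listed at 0 in every control library and at means of 31.4 and 32.7 FPKM in shSETD2. For PAX2 they were ARHGAP45 (0.258) and CFLAR (0.338), and for LHX1 ARHGEF16 (0.202) and ADAMTSL5 (0.216). B3GNTL1 (0.2503) and MROH1 (0.272) lay nearest to WT1. BMP4, a secreted growth factor, was nearest to EMX2 (0.0725), with 1.72, 2.42 and 2.17 FPKM in control and 0 in each shSETD2 library, followed by the processed transcript AC009403.2 (0.142). DLL3 (0.342) and the intronic transcript AC011462.4 (0.343) were nearest to FOXA1, and PDLIM3 (0.0331) and FLRT1 (0.0467) to NKX2-1. With 2 groups and little spread within them, such distances mainly reflect the level in each group.

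The listed genes next to the members were then examined. NKX2-8, a related homeodomain gene 59.4 kb beyond NKX2-1, was listed at 1.44, 1.74 and 1.19 FPKM in control and at 0 in each shSETD2 library, as NKX2-1 was, while MBIP on the other side of NKX2-1 fell from a mean of 7.04 to 3.54 FPKM. PSD4, 6.60 kb from PAX8, rose with it from 0.217 to 1.56 FPKM, and CBWD2 on its other side fell from 4.58 to 2.69 FPKM. AATF, 4.26 kb beyond LHX1, rose from 11.8 to 19.5 FPKM, and the lincRNA AC243830.1 before LHX1 was listed at 0 in each shSETD2 library. On both sides of PAX2, HIF1AN had means of 10.7 and 4.502 FPKM in control and shSETD2, and SLF2 8.27 and 6.55 FPKM. Around EMX2, PDZD8 fell from 18.9 to 6.75 FPKM and RAB11FIP2 from 6.56 to 2.80 FPKM. RCN1 and EIF3M flank WT1; RCN1 was at 25.3 and 30.6 FPKM with overlapping groups, and EIF3M at 21.6 and 17.0 FPKM. MIPOL1 next to FOXA1 fell from 1.92 to 1.09 FPKM, and SSTR1 on its other side was below 0.2 FPKM in all libraries. Relative to the median of all genes, SLF2 (-0.01) and EIF3M (-0.05) did not differ from genes at large. On that scale, the other neighbours past the threshold and above 0 in both groups were at 1.36 for PSD4, 0.97 for AATF, -0.20 for MIPOL1, -0.31 for CBWD2, -0.54 for MBIP, -0.70 for RAB11FIP2, -0.80 for HIF1AN and -1.07 for PDZD8. No listed gene overlapped a member, and the antisense genes PAX8-AS1, WT1-AS, EMX2OS and NKX2-1-AS1 were not listed. The strand setting of the counting is not given in the sources used here.

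Next, a list of 26 other regulators of kidney development was examined, of which 21 were listed and 18 tested. In this list 4 genes were higher and 14 lower in shSETD2, where 26.8% and 51.8% of all genes tested were, with a median difference of -1.50 against -0.29 over all genes tested. Relative to all genes this median was -1.21, but it ran from -2.44 to 0.68 over the alternatives and changed sign at a minimum mean of 5 FPKM, so no direction is read from it. Of the 14 lower genes, 8 had a mean under 0.5 FPKM in shSETD2 and passed the filter only through control, as 1 of the 4 higher genes did only through shSETD2. FOXC2, the most abundant of the list in shSETD2, rose from a mean of 1.15 to 15.0 FPKM. FOXC1, its forkhead relative and the most abundant in control, fell from 66.8 to 2.103 FPKM. SALL1, a zinc finger factor of nephron progenitors, had 7.09, 8.01 and 7.82 FPKM in control and 0 in each shSETD2 library. The 5 genes that were not listed included HNF4A, FOXI1, TCF21 and TFAP2B. Kidney regulators thus did not move in a single direction.

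A list of 23 other regulators of lung development had 16 listed and 14 tested genes, of which 5 were higher and 8 lower, beside 26.8% and 51.8% of all genes tested. 3 of the 5 and 5 of the 8 passed the filter only through the group in which they were high. The median difference was -0.77, again against -0.29 over all genes tested. Relative to all genes it was -0.48, moved to -0.20 without control library 3 and to 2.91 at a minimum mean of 5 FPKM, and gives no direction either. SOX9, a factor of the distal lung tip and the most abundant of the list in shSETD2, rose from a mean of 4.73 to 38.3 FPKM. ETV5 and ETV4, ETS factors downstream of FGF signalling in the lung tip, rose from 0.203 to 15.4 FPKM and from 0.457 to 12.9 FPKM. CEBPA, which acts in alveolar differentiation, fell from 5.44 to 0.334 FPKM. KLF5, the most abundant in control, was at 9.80 FPKM there and at 6.58 FPKM in shSETD2. FOXJ1, EHF, GRHL2, TP63, HOPX, TBX4 and TBX5 were not listed. SOX9, ETV4 and ETV5 are also active in the developing kidney, so the lung list is not particular to the lung.

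**Figure D4:**
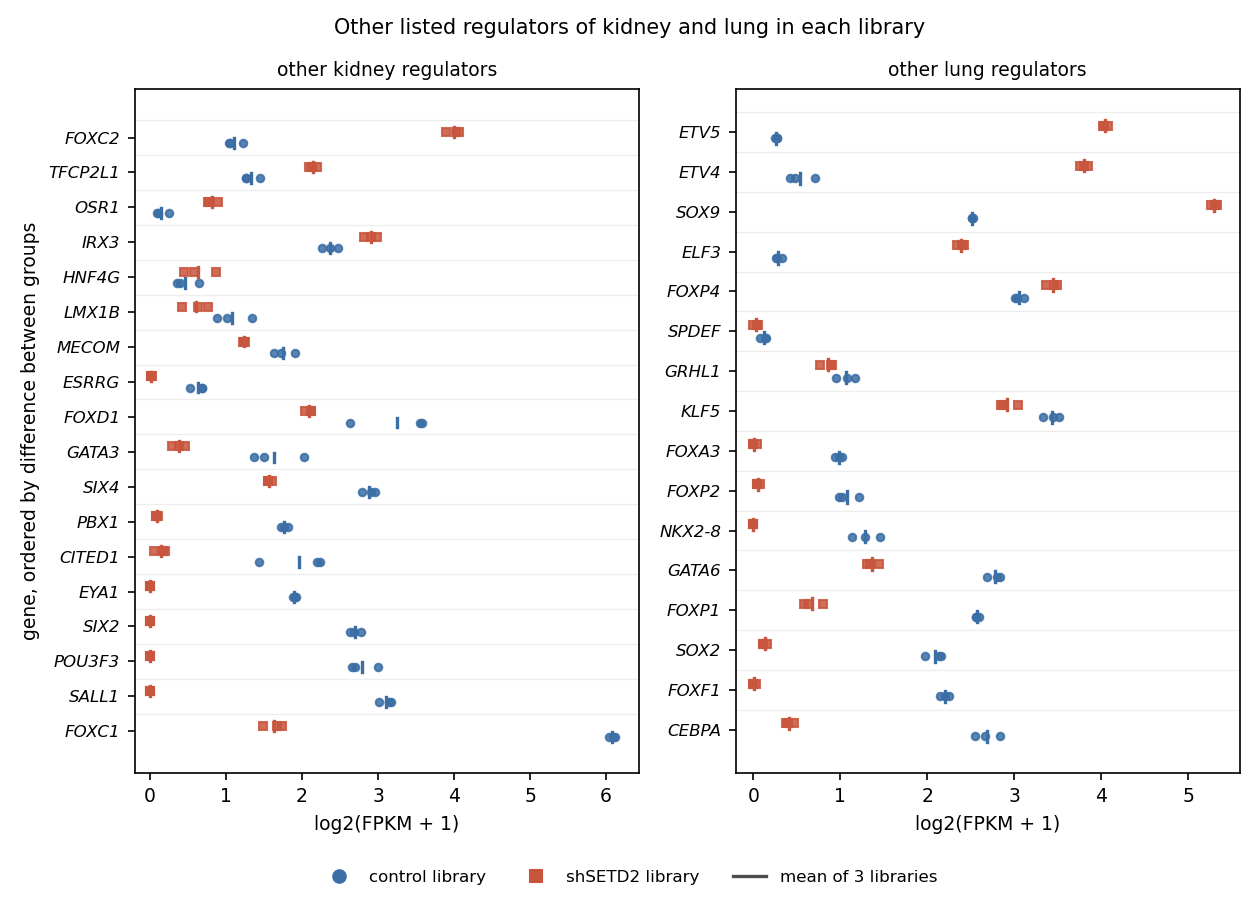
Points show log2(FPKM + 1) in each library for listed genes among the other kidney regulators (left) and other lung regulators (right), with a tick at each group mean and genes ordered by the difference between groups. In both panels genes that are high in shSETD2 stand beside genes that are at or near 0 there.

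Among 26 family relatives of the 8 factors, 17 were listed and 14 tested, with 3 higher and 10 lower (26.8% and 51.8% of all genes tested) and a median difference of -1.21. Relative to all genes the median was -0.92 and ran from -3.74 to 0.56 over the alternatives. Of the 10 lower genes, 9 were under 0.5 FPKM in shSETD2 and passed the filter only through control, as 1 of the 3 higher genes did only through shSETD2, so nothing is read from this count or median. PAX3, a paired-box factor of neural crest and muscle, was listed at 4.58, 4.37 and 4.80 FPKM in control and at 0.0142, 0 and 0 FPKM in shSETD2. PAX9 passed no threshold (2.30 and 1.96 FPKM, adjusted p = 0.121), and PAX6 rose from 1.76 to 2.58 FPKM. Among the NKX2 relatives, NKX2-2, NKX2-3, NKX2-4 and NKX2-8 were listed at 0 in every shSETD2 library, as NKX2-1 was, and NKX2-2 had 1.98, 2.01 and 1.95 FPKM in control. NKX2-5, a heart factor, remained on in both groups, at means of 13.0 and 4.28 FPKM. EMX1, the paralog of EMX2, was at 1.56, 1.73 and 1.61 FPKM in control and at 0, 0 and 0.00825 FPKM in shSETD2. Of the EGR genes, whose zinc fingers resemble those of WT1, EGR1 was the most abundant relative in both groups and rose from 50.5 to 245.0 FPKM, EGR4 rose from 0.0347 to 2.38 FPKM, and EGR3 fell from 1.28 to 0.428 FPKM. LHX relatives were low: LHX2, LHX4, LHX6 and LHX8 were each under 2 FPKM in control and under 0.2 FPKM in shSETD2, so LHX1 was the only listed LHX gene that was higher in shSETD2. The other 9 relatives, PAX1, PAX4, PAX5, PAX7, LHX3, LHX5, LHX9, NKX2-6 and EGR2, were not listed.

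Of 17 genes whose proteins bind these factors, 16 were listed and tested, and the RNA of 16 in control and 14 in shSETD2 had a mean of at least 1 FPKM. 5 were higher and 10 lower, against 26.8% and 51.8% of all genes tested, with a median difference of -0.39, near that of all genes. BASP1, a cofactor that turns WT1 into a repressor and the most abundant partner in shSETD2, rose from a mean of 12.5 to 90.1 FPKM. WWTR1, known as TAZ and a coactivator of PAX8 and NKX2-1, rose from 4.23 to 23.0 FPKM. TLE4, a corepressor, fell from 19.5 to 4.04 FPKM, and SSBP3, which binds LDB1 in complexes with LIM-homeodomain factors, fell from 9.95 to 3.46 FPKM. RLIM, the most abundant partner in control, had means of 33.6 and 24.4 FPKM. LDB1 itself fell from 17.9 to 10.1 FPKM, while LDB2 was not listed. CITED2 did not pass the threshold, at 6.93, 6.29 and 10.9 FPKM in control and 15.1, 7.61 and 7.04 FPKM in shSETD2, and its groups overlapped.

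**Figure D5:**
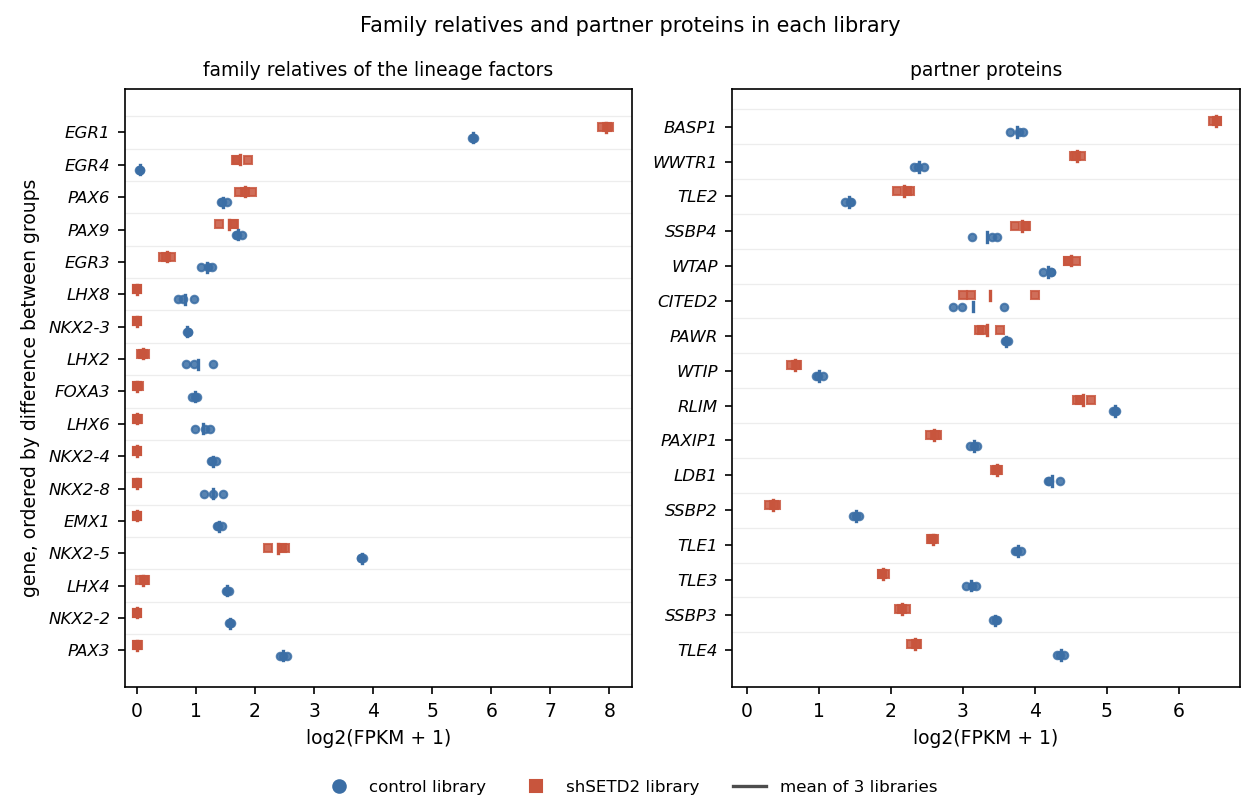
Points show log2(FPKM + 1) in each library for listed family relatives (left) and partner proteins (right) of the lineage factors, with a tick at each group mean. Most relatives lie at or near 0 in shSETD2, whereas partner proteins are above 0 in all libraries.

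Renal differentiation genes were finally set beside the kidney factors. Of 25 such genes, 17 were not listed, among them CDH16, CDH6, UMOD, AQP1, AQP2, CUBN, CALB1, SLC12A1 and SLC34A1. The 8 listed genes summed to 13.5, 13.6 and 13.4 FPKM in control and to 9.54, 9.09 and 9.66 FPKM in shSETD2. Of 6 tested genes, 1 was higher and 5 were lower (26.8% and 51.8% of all genes tested), with a median difference of -1.34, and 4 of the 5 passed the filter only through control and the 1 only through shSETD2. Relative to all genes the median was -1.05 and ran from -5.46 to -0.85 over the alternatives that gave a value. SYNPO, which encodes the actin-binding protein synaptopodin of podocytes and neurons, rose from 0.473 to 7.66 FPKM and was the most abundant of the list in shSETD2. PODXL, a sialomucin of podocytes and the most abundant in control, fell from 5.95 to 1.57 FPKM. LRP2, the megalin receptor of the proximal tubule, was at 1.95, 2.07 and 2.18 FPKM in control and at 0 in each shSETD2 library. WNT11, a signal of the ureteric tip, had 2.23, 2.41 and 1.26 FPKM in control and 0.0373, 0 and 0.0593 FPKM in shSETD2.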

How the data were processed

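According to the processing notes and methods of the authors, reads were aligned with HISAT2 to hg19 (GRCh37) and quantified with Ballgown, and FPKM of every library were deposited. Versions, and how genes came to be listed, are not given in the sources used here. The authors' columns of group means, fold changes and tests were not used. Groups and replicate numbers came from the sample titles. The values used are FPKM, which are not counts, so the depth behind each value is unknown and precision is given by the spread over 3 libraries. The libraries were made with a stranded kit.

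Genes with a mean of at least 0.5 FPKM over the 6 libraries (14068 of 15897) were compared on log2(FPKM + 1) by moderated t-tests (lmFit, eBayes, trend on intensity) in limma 3.58.1 under R 4.3.3, with Benjamini-Hochberg adjustment over all genes tested and a threshold of 0.05. The fit was tested on simulated data. The log2(FPKM + 1) scale understates the change of low genes. Single genes were also compared with an exact permutation test over libraries. Tables and plots used Python 3.11.15, pandas 2.3.3, numpy 2.4.6, scipy 1.17.1 and matplotlib 3.10.9. Promoters came from RefSeq (GRCh38.p14).

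The lineage factors and SETD2 were given in every library. In each other list the 4 genes past the threshold with the largest absolute difference and the most abundant gene of each group were named. For each factor with a mean of 1 FPKM or more in a group, the 2 genes at the smallest distance were named, as were the nearest listed genes on each side. Some genes of the lists that the rule would name are counted but not described here. Other genes were named to complete a family or an account of a list after their values were seen. The members and lists were chosen with earlier results of these data known. The alternatives were pseudocounts of 0.1 and 0.01, no filter, a minimum mean of 5 FPKM, median ratio, quantile and upper quartile scaling, no intensity trend, the replicate number as a block, and each library left out in turn.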

Additional observations from a re-analysis of the deposited data

How the results depend on the processing

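PAX2 and PAX8 kept their direction and side of the threshold under all 15 alternatives, and LHX1, EMX2, WT1, FOXA1 and NKX2-1 under the 14 that could give a value, since these 5 fell below a minimum mean of 5 FPKM. None of these 7 genes reversed direction. Under that minimum, 7078 genes were tested and 5647 were called (2401 higher and 3246 lower), and of the lineage factors 2 were called, both higher, and 0 lower. The lists shrank with it. Other kidney regulators had 3 higher and 2 lower in place of 4 and 14. Other lung regulators had 4 higher and 1 lower in place of 5 and 8. Family relatives and lung differentiation genes each had 1 higher and 1 lower. General epithelium had 3 higher and 0 lower of 4 tested. No renal differentiation gene and no fibroblast marker was tested at this minimum, so these lists give no count there. Without a filter, renal differentiation genes had 2 higher, general epithelium 5 higher and 4 lower, and fibroblast markers 3 lower, from more genes tested.

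Scaling changed the split of calls more than their number. As deposited, 34.1% of the called genes were higher in shSETD2, against 50.3% after median ratio scaling, 44.5% after quantile normalization and 37.8% after upper quartile scaling. Under these 3 scalings the lower lung differentiation genes fell from 2 to 1, since AGER was no longer called, and 1 neuron marker, SYP, was called higher in place of 0. General epithelium had 3 higher genes as deposited, 4 after median ratio and after upper quartile scaling, and 5 after quantile normalization. Leaving out each library in turn gave 1 lower lung differentiation gene in 5 of 6 fits and 2 only without control library 2, 1 to 3 lower general epithelium genes and 0 to 1 higher neuron markers.

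SETD2 was -0.58 with the replicate block, as in the fit without it, but passed the threshold (adjusted p = 0.0156), and it ranged from -0.83 to -0.45 with a library left out and was -0.25 after median ratio scaling. Its adjusted p over all alternatives is given with its values above. The cause was not tested. The block called 10976 genes against 11057. Same-numbered libraries did not deviate together (r of -0.0237, 0.0177 and -0.00766 for numbers 1 to 3), so the numbers were not taken as pairs. The genes named from the lists for the size of their difference were the same in direction and call under every alternative run, apart from CD68, which lost its call in 5 of 14.

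Relative to all genes, the median difference of the other kidney regulators (-1.21) was -2.44 to 0.68 over the alternatives, that of the other lung regulators (-0.48) -0.86 to 2.91 and that of the family relatives (-0.92) -3.74 to 0.56. All 3 changed sign at a minimum mean of 5 FPKM, where fewer genes were tested. That of the renal differentiation genes (-1.05) was -5.46 to -0.85. With a library left out, the median of the other lung regulators lay between -0.67 and -0.20. The depth of the libraries is unknown, so the counting error of low values and of values of 0 cannot be given.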
